A study of Mus musculus with 12 samples.

Results

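Whole spleen was compared with axillary lymph node in mice labelled DKO/hA-I, to describe which cell types and gene programmes each organ held. DKO stands for mice that lack both apoE and apoA-I, the main proteins of remnant and high-density lipoproteins, and DKO/hA-I for DKO mice that overexpress human apoA-I. The comparison used 6 of the 12 RNA-seq libraries of the study, 3 spleens and 3 axillary nodes, chosen by tissue and genotype label. The other 6 libraries, 3 spleens and 3 nodes labelled DKO, entered only where they are named. All mice were 30 weeks old and ate normal laboratory diet, and all of them, controls included, carried both deletions. The sources used here do not state the promoter of the human transgene, the sex of the mice or how many nodes went into a library.

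The spleen and the lymph node hold many of the same lymphocytes but differ in what they filter. The spleen filters blood: macrophages of its red pulp engulf old red cells and return their iron, its marginal zone traps particles from blood, and in rodents its red pulp also makes red cells, platelets and granulocytes throughout life. The lymph node filters lymph: lymphatic vessels drain into its sinuses, T and B cells enter from blood through high endothelial venules, and the node is embedded in fat.

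Depth ranged from 9239819 to 11237680 counts per library, and 3 counts corresponded to 0.267 to 0.325 CPM (counts scaled to the library's total). The 3 libraries of each organ differed from each other by 10 to 23.6 times the variance that counting alone gives, so none was a copy of another. No animal code occurs in both organs, so the organ cannot be told apart from anything else that separated those animals. Each p-value reflects only how far these 6 libraries vary among themselves. Apoe stood at 8.43, 11.9 and 11.3 CPM in the spleens and 8.08, 8.79 and 9.14 CPM in the nodes, and Apoa1 had 19 counts in all 3 spleens and 6 in all 3 nodes. Human apoA-I was not analysed here.

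One gene went against the labels. Rpl31-ps12 (ENSMUSG00000116648) is a processed pseudogene of a ribosomal protein on chromosome 16 (chr16:16819749-16820123, minus strand, GRCm38). Among libraries labelled DKO/hA-I it stood at 53.6, 76.6 and 69.8 CPM in the spleens and at 0.0951, 0.0925 and 0.11 CPM in the nodes. Among libraries labelled DKO the order was the opposite, with 0.221, 0.0977 and 0.2 CPM in spleens and 90.2, 58.5 and 65.8 CPM in nodes. Libraries with the same genotype label therefore did not share the level of this gene across organs, and which organ carries the right label was not tested. Groups are called by their labels throughout, and list counts are given also against the nodes labelled DKO where these change a count by more than 1.5 times.

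In the libraries labelled DKO/hA-I, 2477 of 14274 genes tested (17.4%) were higher in spleen and 2063 (14.5%) higher in node, by edgeR's quasi-likelihood test at an adjusted p under 0.05. Of these, 1311 (9.18%) and 966 (6.77%) also differed at least 2-fold. The values of the organs did not overlap for 6536 genes (45.8%). The median log2 fold change, spleen minus node, was -0.01 over all genes tested, a value that the scaling itself sets near 0. Below, levels are CPM in replicates 1, 2 and 3, and every fold change is log2, spleen minus node, ± its standard error. In bulk tissue, fewer cells of a type and less RNA per cell cannot be told apart.

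**Figure D1:**
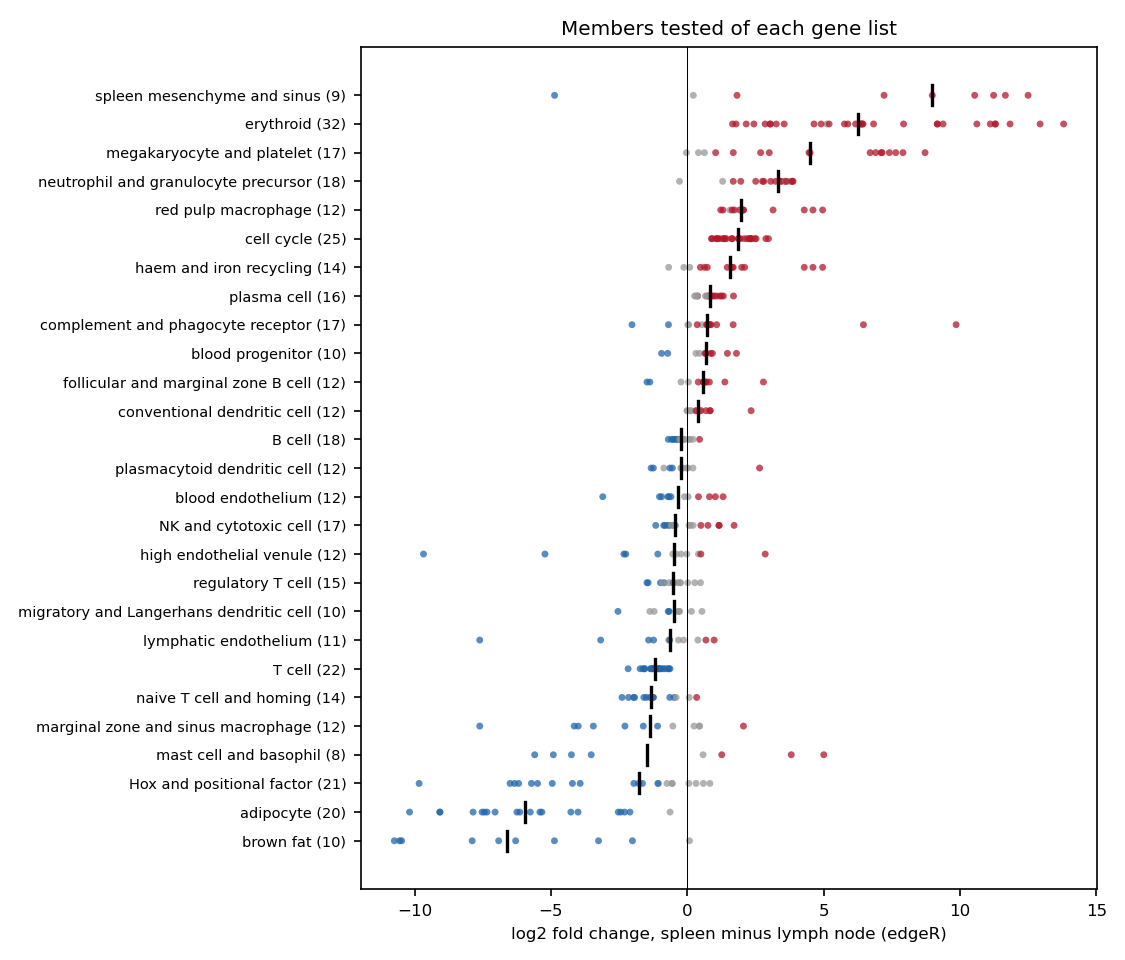
Log2 fold change (spleen minus lymph node, edgeR) of each member tested of 27 gene lists, with the number tested in parentheses. Red and blue points passed the test at an adjusted p under 0.05 in favour of spleen or node, grey points did not, and black bars are list medians, which run from 8.98 for spleen mesenchyme to -6.61 for brown fat.

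Red cell precursor genes had the largest median difference of the blood cell lists, toward the spleen. Of 32 erythroid genes tested, 31 were higher in spleen and none in node, with a median of 6.26, beside 17.4% of all genes and a median of -0.01. Haemoglobin genes took 1.81%, 2.76% and 1.72% of all counts in the spleens and 0.0190%, 0.0602% and 0.0191% in the nodes. The lowest spleen thus lay far above the highest node, node replicate 2. Several red cell membrane genes were at or near 0 in the nodes.

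Slc4a1, the anion exchanger band 3 of the red cell membrane (chromosome 11), had 1273, 1017 and 1029.8 CPM in the spleens and 2 counts in all 3 nodes together, a ratio of 16857 with a 95% counting interval from 4666 to 139198. It had the largest fold change of the list (13.80 ± 0.28, adjusted p = 1.46e-09). Kel, the Kell blood group protease, had 118, 79.1 and 82.7 CPM in the spleens and no count in any node, which makes it at least 948-fold higher in spleen. The spectrin genes Spna1 (alpha chain, 11.83 ± 0.42) and Spnb1 (beta chain, 6.35 ± 0.19), the Rhesus antigen gene Rhd (9.37 ± 0.28) and the carbonic anhydrase Car1 (11.29 ± 0.72) were all higher in spleen.

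Transcription factors of the lineage followed the same order. Klf1, which activates the adult globin genes, had 77.3, 44.6 and 54.7 CPM in spleens and 0.19, 0.278 and 0.22 CPM in nodes (7.93 ± 0.34, adjusted p = 1.59e-07). Gata1, the master regulator of red cells and platelets, had 53.3, 33.9 and 39.3 CPM against 2.66, 0.925 and 1.43 CPM (4.64 ± 0.31, adjusted p = 5.35e-06). Alas2, the first enzyme of haem synthesis in red cells, had 557, 716 and 482 CPM against 4.28, 12.7 and 3.63 CPM (6.39 ± 0.54, adjusted p = 0.000473). Klf1, Gata1 and Alas2 were picked after their values were seen. Spleen replicate 1 was the highest spleen for each erythroid gene named so far except Alas2, and no spleen overlapped any node for any of them. Hbb-b2 was the member not called: it had 1845, 25.9 and 1708 CPM in spleens against 5.80, 63.9 and 33.7 CPM in nodes (adjusted p = 0.125), and without spleen replicate 2 it passed (adjusted p = 0.0340). The globin copies are nearly identical in sequence, so reads may be split between them and the single globin values are uncertain.

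Promoters were searched because these genes moved together. RefSeq promoters (GRCm38.p6) were at hand for 21 of the 34 erythroid genes listed. In the 250 bases before the start, 14 of the 21 (66.7%) held AGATAA or TGATAA on either strand, letters bound by GATA factors, beside 17% of all 27025 promoters in that table. The CACCC box CCACACCC of the KLF1 type was in 1 of the 21 (4.76%), beside 3.19% of all. GAGGAAGT, a PU.1 and Spi-C motif, was in 0 of the 21, beside 2.44% of all. These are matches of letters, with no test, and no binding was measured. The 4 sequences below are all from erythroid promoters that held GATA letters. Each is the 250 bases before the start on the gene's own strand, with GATA letters in capitals. They are Alas2 at chrX:150547167-150547416 (plus strand), Klf1 at chr8:84901732-84901981 (plus strand), Kel at chr6:41704326-41704575 (minus strand) and Hba-a1 at chr11:32283422-32283671 (plus strand).
Alas2: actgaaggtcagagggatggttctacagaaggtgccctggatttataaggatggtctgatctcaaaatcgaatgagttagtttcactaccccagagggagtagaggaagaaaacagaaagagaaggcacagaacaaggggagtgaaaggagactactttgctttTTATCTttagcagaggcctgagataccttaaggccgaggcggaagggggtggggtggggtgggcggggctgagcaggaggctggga
Klf1: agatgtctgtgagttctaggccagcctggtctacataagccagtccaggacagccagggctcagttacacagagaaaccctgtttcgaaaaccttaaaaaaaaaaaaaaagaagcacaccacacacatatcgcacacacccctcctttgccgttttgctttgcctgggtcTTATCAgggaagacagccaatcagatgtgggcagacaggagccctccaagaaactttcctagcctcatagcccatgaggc
Kel: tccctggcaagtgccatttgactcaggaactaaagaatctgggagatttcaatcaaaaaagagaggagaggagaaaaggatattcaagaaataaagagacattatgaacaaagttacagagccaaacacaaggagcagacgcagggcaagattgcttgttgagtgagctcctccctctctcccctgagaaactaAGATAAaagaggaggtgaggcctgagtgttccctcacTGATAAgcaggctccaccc
Hba-a1: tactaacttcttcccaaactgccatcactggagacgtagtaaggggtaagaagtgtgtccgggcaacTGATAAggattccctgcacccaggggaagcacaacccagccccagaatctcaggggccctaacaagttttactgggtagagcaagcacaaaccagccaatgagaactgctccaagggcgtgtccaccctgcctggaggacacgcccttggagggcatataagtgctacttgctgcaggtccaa
In Alas2 and Klf1 the letters lie on the opposite strand, 81 to 86 and 75 to 80 bases before the start. Kel holds a match on its own strand 51 to 56 bases before the start and another at 14 to 19, and Hba-a1 holds 1 at 178 to 183. Of the red pulp macrophage genes with a promoter, 1 of 7 (14.3%) held GATA letters, as did 2 of 11 (18.2%) of the high endothelial venule genes.

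**Figure D2:**
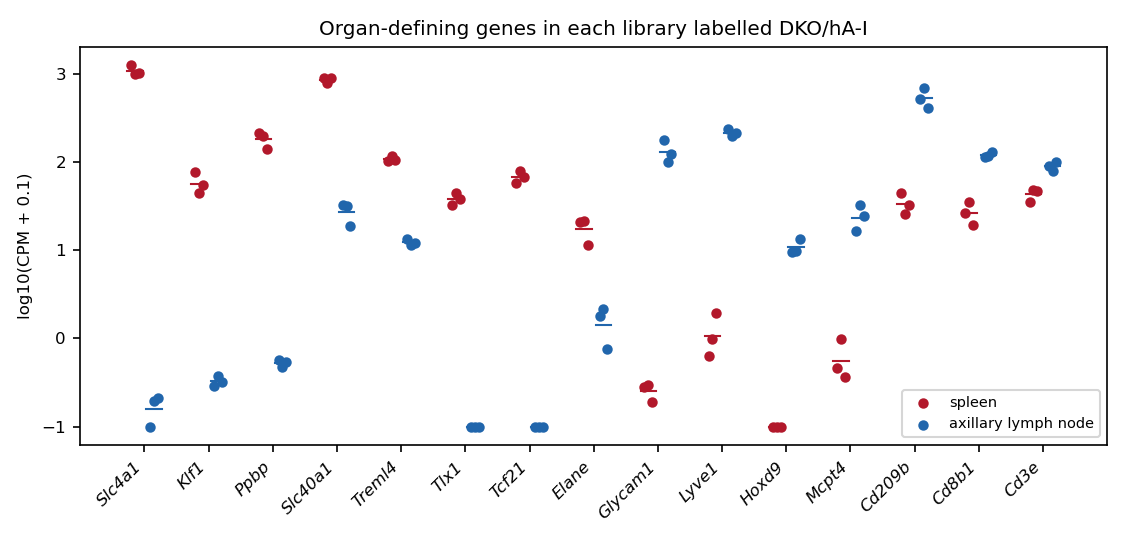
Level of 15 genes of the lists in each of the 6 libraries labelled DKO/hA-I, as log10(CPM + 0.1), with a dash at each mean. The calls of Cd209b, Elane and Cd3e were lost against the nodes labelled DKO. The organs do not overlap for any gene shown, and Tlx1, Tcf21 and Hoxd9 sit at the floor in one organ.

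Beyond the lists, the genes with the largest fold changes toward the spleen included other red cell genes. Add2, the beta adducin of the red cell skeleton, had 86.1, 47.96 and 67.7 CPM in the spleens and 0, 0 and 0 CPM in the nodes. Pklr, the pyruvate kinase of red cells and liver, had 63.6, 22.5 and 39.98 CPM in the spleens and no count in the nodes, a call lost without spleen replicate 3 (adjusted p = 0.0667). Slc38a5, a glutamine transporter, had 46.7, 26.8 and 31.5 CPM against 0, 0 and 0 CPM, and Gdpd2, a glycerophosphodiester phosphodiesterase, 205, 197 and 170.0 CPM against 0, 0 and 0.11 CPM. Toward the node, the same rule named fat genes such as Pck1, the enzyme of glyceroneogenesis, at 282, 361 and 207 CPM in nodes against 0.987, 1.18 and 0.531 CPM in spleens, and Adrb3, the adrenergic receptor of adipocytes, at 42.3, 59.04 and 11.6 CPM against 0.269, 0.0987 and 0 CPM, a call lost with limma voom (adjusted p = 0.0549). The rule that named these genes took only those for which no spleen overlapped any node.

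Genes of megakaryocytes and platelets followed the same pattern. Of 17 megakaryocyte and platelet genes tested, 14 were higher in spleen and none in node (median 4.50). Ppbp, the platelet chemokine precursor, had 213, 198 and 143 CPM in the spleens and 0.475, 0.37 and 0.44 CPM in the nodes (8.72 ± 0.24, adjusted p = 6.6e-09). Pf4, a second platelet chemokine, had 47.5, 51.4 and 37.2 CPM against 1.33, 3.24 and 1.32 CPM (4.499 ± 0.29, adjusted p = 2.8e-06). The von Willebrand receptor subunits Gp1ba (3.003 ± 0.20) and Gp5 (7.91 ± 0.41) and the platelet tubulin Tubb1 (6.70 ± 0.27) were also higher in spleen. Itga2b, the integrin chain shared by megakaryocytes and some progenitors, was not called, at 74.8, 92.6 and 63.7 CPM against 70.8, 47.8 and 30.8 CPM (adjusted p = 0.167), but passed without node replicate 1 (0.97, adjusted p = 0.00949). Vwf and Selp, which endothelium also makes, were the other 2 members not called.

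Granulocyte genes were higher in spleen too, with wide spread among the libraries. Of 18 neutrophil and granulocyte precursor genes tested, 14 were higher in spleen and none in node (median 3.32). Elane, the neutrophil elastase made in promyelocytes, had 20.9, 21.6 and 11.5 CPM against 1.71, 2.04 and 0.66 CPM (3.57 ± 0.37, adjusted p = 6.32e-05). Mpo, the myeloperoxidase of the same stage, had 87.4, 63.7 and 39.6 CPM against 6.94, 4.63 and 1.54 CPM (3.83 ± 0.53, adjusted p = 0.00307). S100a8, a calprotectin subunit of mature neutrophils, had 261, 388 and 134 CPM against 43.7, 18.5 and 9.58 CPM (3.44 ± 0.73, adjusted p = 0.0223). Spleen replicate 3 was lowest of the spleens for all 3 genes and node replicate 3 lowest of the nodes. The S100a8 call was lost without spleen replicate 1 or 2 or node replicate 2 or 3 (adjusted p = 0.0575, 0.0664, 0.0889 and 0.0639). With the nodes labelled DKO in their place, only 1 of the 18 was called higher in spleen, with a median of 0.90. Those nodes varied widely, from 263 to 1759 summed CPM for the list, scaled over all 12 libraries. The nodes labelled DKO/hA-I ranged from 129 to 331 CPM.

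Among 10 blood progenitor genes tested, 6 were higher in spleen and 2 in node (median 0.66). Kit, the stem cell factor receptor of early progenitors and mast cells, had 79.7, 61.8 and 70.8 CPM against 38.3, 35.3 and 38.96 CPM (0.92 ± 0.12, adjusted p = 0.000176). Meis1, a homeobox factor of stem cells and megakaryocytes, rose in spleen (1.47 ± 0.21). Cd34 (-0.95 ± 0.16) and Erg (-0.72 ± 0.19), both also made by endothelium, were higher in node. The Erg call was lost without node replicate 2 or spleen replicate 3 (adjusted p = 0.0509 and 0.0582).

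All 25 cell cycle genes tested were higher in spleen (median 1.87). Mki67, a marker of proliferating cells, had 1068, 627 and 791 CPM in the spleens and 190.4, 137 and 122 CPM in the nodes (2.47 ± 0.23, adjusted p = 6.59e-05). The mitotic cyclin Ccnb2 (2.52 ± 0.19), the kinase Plk1 (2.32 ± 0.19) and the chromosomal passenger Birc5 (2.33 ± 0.17) behaved alike. Spleen replicate 1, highest for most erythroid genes named, was also the highest for the summed cell cycle list, at 4419 CPM against 2828 and 3489 CPM. When the nodes labelled DKO were used instead, the median was 0.75 and edgeR called none of the 25, with 9 higher in spleen at an unadjusted p under 0.05. Those nodes ranged from 1308 to 3452 CPM for the list, compared with 1038 to 1297 CPM in the nodes labelled DKO/hA-I.

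Red pulp macrophage genes separated the organs in every library. Of 12 tested, 11 were higher in spleen (median 1.98), and against the nodes labelled DKO 7 were, with none higher in node. Spic, the factor that drives this macrophage, had 111, 112 and 105 CPM in the spleens and 31.9, 27.1 and 19.5 CPM in the nodes (2.06 ± 0.16, adjusted p = 5.46e-06). Treml4, a receptor of red pulp macrophages and some dendritic cells, had 102, 118 and 106 CPM against 13.5, 11.3 and 12.1 CPM (3.14 ± 0.12, adjusted p = 4.56e-08). Vcam1, an adhesion molecule that these macrophages and stroma display, had 1147, 971 and 993 CPM against 270.0, 219.6 and 264 CPM (2.05 ± 0.13, adjusted p = 9.15e-07). Cd163, the haemoglobin-haptoglobin scavenger receptor, had 111, 138 and 98.5 CPM against 3.52, 7.87 and 2.64 CPM (4.60 ± 0.36, adjusted p = 8.82e-05). Cd5l, a survival protein secreted by tissue macrophages, was the member not called: node replicate 1 stood at 351 CPM while the other two nodes stood at 96.7 and 80.7 CPM (chosen after its values were seen). Without node replicate 1 it passed, at 2.55 (adjusted p = 2.4e-06).

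The iron recycling steps that these macrophages run were higher in spleen from haem breakdown to iron export. Of 14 genes tested, 11 were higher in spleen and none in node (median 1.55). Hmox1, the haem oxygenase, had 669, 976 and 745 CPM in spleens and 50.6, 40.8 and 30.8 CPM in nodes (4.29 ± 0.22, adjusted p = 9.01e-07). Slc40a1, which encodes ferroportin, the iron exporter, had 916, 799 and 897 CPM against 33.1, 32.02 and 18.6 CPM (4.96 ± 0.22, adjusted p = 2.77e-07). The biliverdin reductase Blvrb (2.10 ± 0.11) and the haem transporter Slc48a1 (1.68 ± 0.10) were also higher in spleen. Lrp1, which takes up haem bound to haemopexin among many ligands, was higher in spleen by 1.99 ± 0.20 here, but stood at -0.29 against the nodes labelled DKO. When the nodes labelled DKO were used instead, 5 of the 14 were called higher in spleen and the median was 0.15. Hmox1, Slc40a1, Blvrb and Cd163 kept differences of 3.57, 4.40, 2.38 and 5.14 between spleens and nodes both labelled DKO.

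Genes listed for macrophages of the marginal zone and lymph sinuses showed the opposite order. Of 12 genes tested, 7 were higher in node and 1 in spleen (median -1.35), and against the nodes labelled DKO 5 and 2 were (median -0.56). The 7 include Lyve1, the largest change of the list (-7.61), which lymphatic endothelium also makes. Cd209b, the lectin SIGN-R1 of marginal zone and medullary macrophages, had 44.4, 25.6 and 32.5 CPM in the spleens and 528, 702 and 414 CPM in the nodes (-4.002 ± 0.27, adjusted p = 1.59e-05). Its relative Cd209d (-2.29 ± 0.18), the sialic acid receptor Siglec1 of metallophilic and subcapsular macrophages (-1.62 ± 0.20), the scavenger receptor Msr1 (-3.45 ± 0.23) and the folate receptor Folr2 (-4.15 ± 0.27) were higher in node. Mrc1, the mannose receptor, which sinus endothelium also carries, was higher in spleen at 312, 294 and 275 CPM against 55.9, 113 and 42.5 CPM (2.06 ± 0.37, adjusted p = 0.00821). Marco, a scavenger receptor of the same macrophages, was not called: 174, 211 and 221 CPM in the spleens overlapped 416, 270.3 and 189.6 CPM in the nodes (adjusted p = 0.193). Without node replicate 3 it passed as higher in node, at -0.76 (adjusted p = 0.0105).

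For several of these receptors the organ difference depended on the label. Nodes labelled DKO had 33.4, 22.4 and 13.1 CPM of Marco, scaled over all 12 libraries, against 254, 221 and 261 CPM in spleens labelled DKO. The organ difference in Marco differed between the labels by -3.95 (adjusted p = 0.00215), that in Cd209b by -3.81 (adjusted p = 0.00422) and that in Cd209d by -1.70 (adjusted p = 0.00506). Msr1 and Folr2 were lower in spleen under both labels, by -4.47 and -3.999 in the libraries labelled DKO.

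Complement and phagocyte receptor genes leaned to the spleen in these libraries. Of 17 tested, 12 were higher in spleen and 2 in node (median 0.72). C1qa, a chain of the first complement component, had 252, 284 and 274 CPM against 192, 137 and 150.2 CPM (0.76 ± 0.13, adjusted p = 0.00121), and the low-affinity IgG receptor Fcgr3 differed by 1.07 ± 0.11. C6, a component of the membrane attack complex, had 101, 87.7 and 90.2 CPM in the spleens and 0.856, 1.85 and 0.33 CPM in the nodes (6.46 ± 0.29, adjusted p = 4.56e-07). C3, the central component, was higher in node at 2655, 2127 and 1638 CPM against 1128, 1180.2 and 1662 CPM (-0.69 ± 0.20, adjusted p = 0.0256), with node replicate 3 below the highest spleen. The C3 call was lost without node replicate 1 or spleen replicate 1 or 2 (adjusted p = 0.0754, 0.116 and 0.0967). Vsig4, a complement receptor of tissue macrophages picked after its values were seen, had 6.19, 8.19 and 18.6 CPM in the spleens and no count in the nodes, at least 113-fold. Against the nodes labelled DKO, 2 of 17 were higher in spleen and 7 in node, the median was -0.96, and C1qa and Fcgr3 stood at -1.25 and -1.12.

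Monocyte genes were mixed. Of 13 tested, 4 were higher in spleen and 3 in node (median 0.18). The patrolling monocyte genes Cd300e (2.66 ± 0.24) and Fcgr4 (1.62 ± 0.33) were higher in spleen, and the lysozyme Lyz2 (-0.64 ± 0.14) was higher in node. The inflammatory monocyte marker Ly6c2 (-1.29 ± 0.35) and the lectin Clec4e (-0.88 ± 0.24) were higher in node, but both calls were lost without spleen replicate 2 (adjusted p = 0.113 and 0.0588) or 3 (adjusted p = 0.126 and 0.0617), and that of Ly6c2 also without spleen replicate 1 or node replicate 3 (adjusted p = 0.125 and 0.0957). Without node replicate 3, 2 of 13 were higher in spleen, and the median was 0.33 without node replicate 1. Compared with the nodes labelled DKO, 1 of 13 was higher in spleen and 5 in node (median -0.67), and Fcgr4 stood at -0.85. Ccr2, the receptor that brings monocytes out of bone marrow, was not called, at 115, 99.1 and 67.7 CPM against 103, 71.7 and 72.9 CPM.

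Mast cells and basophils split between the organs. The mast cell proteases Mcpt4 (-5.60 ± 0.40), Tpsb2 (-4.92 ± 0.34), Cma1 (-4.25 ± 0.29) and Cpa3 (-3.53 ± 0.29) were all higher in node. Mcpt4 had 16.5, 32.5 and 24.3 CPM in the nodes and 0.359, 0.888 and 0.265 CPM in the spleens. The basophil proteases went the other way: Prss34 had 2.69, 4.34 and 1.77 CPM in spleens and 0.38, 0.0925 and 0.11 CPM in nodes (3.81 ± 0.56, adjusted p = 0.000439), and Mcpt8 had 1 count in the nodes and 1.17, 2.17 and 0.973 CPM in the spleens, a ratio of 42.9 (7.33 to 1732). Of the 8 genes tested, 3 were higher in spleen and 4 in node, so the list's median of -1.48 lies between the values of mast cell and basophil genes, and it was -0.81 without spleen replicate 3 or without the filter on low counts. Among libraries labelled DKO, Mcpt4 and Prss34 differed by -5.61 and 3.63.

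T cell genes were higher in node without exception among those tested: 22 of 22, with a median of -1.20, beside 14.5% of all genes. Cd3e, a chain of the T cell receptor complex, had 90.8, 80.3 and 101 CPM in the nodes and 35.8, 48.4 and 46.7 CPM in the spleens (-1.05 ± 0.14, adjusted p = 0.000179). Cd4, the co-receptor of helper cells, had 291, 278 and 289.6 CPM against 106, 113 and 149 CPM (-1.22 ± 0.13, adjusted p = 5.01e-05). Cd8b1, the co-receptor chain of conventional cytotoxic cells, had 116, 119 and 130.0 CPM against 26.3, 35.3 and 19.5 CPM (-2.17 ± 0.19, adjusted p = 2.1e-05), the largest change of the list. Themis, a signalling adaptor of T cell selection, differed by -1.57 ± 0.12. In the comparison with nodes labelled DKO, the median was -0.55, 8 of 22 were called higher in node, and none in spleen.

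Genes of naive T cells and of entry into lymph nodes followed. Of 14 tested, 11 were higher in node and 1 in spleen (median -1.32). Ccr7, the receptor for the T zone chemokines, had 198, 168 and 227 CPM in nodes and 73.04, 100.4 and 74.7 CPM in spleens (-1.26 ± 0.15, adjusted p = 0.000119). Tcf7 (-1.24 ± 0.15) and Lef1 (-1.93 ± 0.38), transcription factors of naive T cells, were higher in node, with node replicate 3 highest for both. The Lef1 call was lost without spleen replicate 1 (adjusted p = 0.0604). In the comparison with nodes labelled DKO, 2 of 14 were higher in node and none in spleen (median -0.52). None of the interaction tests by label passed for these 14 genes or for the 22 T cell genes, which for so few genes is near the 3.33% of all genes.

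Of 15 regulatory T cell genes tested, 5 were higher in node and none in spleen (median -0.51). Foxp3, the factor that defines these cells, had 34.8, 29.1 and 39.8 CPM against 18.1, 17.6 and 21.8 CPM (-0.85 ± 0.15, adjusted p = 0.00156), and the checkpoint receptor Ctla4 differed by -1.48 ± 0.28. The list median lay nearer 0 than that of the general T cell genes in these libraries only. Against the nodes labelled DKO the count was the same, but the median was -0.81, beside -0.55 for the general T cell genes. Among libraries labelled DKO the medians were -0.63 and -0.47. NK and cytotoxic genes were divided, with 5 of 17 higher in spleen and 6 in node (median -0.45). Gzma, a granzyme of NK cells, had 26.7, 20.5 and 19.2 CPM in spleens against 10.3, 7.77 and 11.9 CPM in nodes (1.16 ± 0.19, adjusted p = 0.00096), and S1pr5, the receptor with which NK cells leave nodes, differed by 1.71 ± 0.33. Eomes (-1.16 ± 0.18) and Nkg7 (-0.82 ± 0.16), shared by NK and CD8 T cells, were higher in node. Without node replicate 2 or spleen replicate 3 the spleen count was 2, and the median was 0.04 without node replicate 1 and -0.26 without spleen replicate 3. The nodes labelled DKO gave 7 higher in spleen and 2 in node (median 0.05).

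B cell genes differed little. Of 18 tested, 6 were higher in node and 1 in spleen (median -0.23), and none differed 2-fold. Ms4a1, which encodes CD20, had 492, 421 and 479.8 CPM in spleens and 481, 544 and 487 CPM in nodes (-0.12 ± 0.11, adjusted p = 0.453). Faim3, an IgM receptor, showed the lowest adjusted p of the list and was higher in node (-0.70 ± 0.13, adjusted p = 0.0017). Spleens and nodes overlapped for Ms4a1. Without spleen replicate 3, 2 of 18 were higher in node, and against the nodes labelled DKO none was (median 0.25). In a fit of all 12 libraries, 1 of 18 was higher in node and Faim3 did not pass (adjusted p = 0.108).

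Within B cells the subset genes pointed both ways. Of 12 follicular and marginal zone genes tested, 8 were higher in spleen and 2 in node (median 0.59). Asb2 had 106, 129 and 146 CPM against 21.9, 17.5 and 15.7 CPM (2.79 ± 0.16, adjusted p = 6.25e-07), and Dtx1, a Notch target of marginal zone B cells, had 172, 239 and 257 CPM against 96.6, 84.6 and 76.4 CPM (1.37 ± 0.16, adjusted p = 9.02e-05). Cr2, the complement receptor CD21, high on marginal zone B cells and follicular dendritic cells, differed by 0.70 ± 0.13, and Cd1d1, another marginal zone marker, by 0.59 ± 0.12. Fcer2a, the CD23 of follicular B cells, was higher in node at 385, 565 and 421 CPM against 157, 214 and 120.5 CPM (-1.48 ± 0.22, adjusted p = 0.00113). Cd9 and Myof were higher in spleen here, by 0.40 ± 0.11 and 0.81 ± 0.13, but lower in spleen in the libraries labelled DKO, by -1.52 and -1.47 (adjusted p of the difference = 0.0357 and 0.0209). The Cd9 call was lost without node replicate 1 or 2 or spleen replicate 2 or 3 (adjusted p = 0.0537, 0.0658, 0.0601 and 0.0570). Against the nodes labelled DKO, 5 of 12 were higher in spleen and 2 in node (median 0.07).

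Plasma cell genes were higher in spleen against these nodes: 11 of 16 tested, none higher in node (median 0.81). Igj, the joining chain of IgM and IgA, had 3208, 3090.3 and 3511 CPM against 1364, 819 and 857 CPM (1.69 ± 0.19, adjusted p = 9.14e-05), and the endoplasmic reticulum disulphide isomerase Txndc5 had 452, 528 and 596 CPM against 351, 236 and 217 CPM (0.97 ± 0.19, adjusted p = 0.00299). Node replicate 1 was the highest node for both. The count was 7 without node replicate 2, 6 without spleen replicate 3 and 3 when all 12 libraries shared 1 fit. With the nodes labelled DKO in their place, edgeR called none of the 16 higher in spleen (0 at an unadjusted p under 0.05), 1 was higher in node, and the median was -0.94. Those nodes varied widely, from 3628 to 19437 summed CPM for the list, scaled over all 12 libraries. The nodes labelled DKO/hA-I ranged from 2640 to 3959 CPM. Germinal centre genes gave 2 of 13 higher in spleen and 1 in node (median 0.69). The count in spleen was 5 with DESeq2 and 6 without spleen replicate 2, and the median was 0.18 without spleen replicate 3. For this list the nodes labelled DKO gave none higher in spleen and 2 in node (median -0.54).

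Conventional dendritic cell genes gave 6 of 12 higher in spleen and none in node (median 0.38), or 3 in spleen against the nodes labelled DKO (median 0.22) and in a fit of all 12 libraries. Clec4a4, the lectin DCIR2 of the spleen's bridging channel dendritic cells, had 5.83, 5.33 and 5.40 CPM against 1.05, 1.20 and 0.991 CPM (2.34 ± 0.25, adjusted p = 4.95e-05). Xcr1, which marks cross-presenting dendritic cells, was not called, at 24.9, 33.3 and 28.9 CPM against 26.2, 24.2 and 27.96 CPM. Of 10 genes of migratory and Langerhans dendritic cells, which reach nodes from tissue, 3 were higher in node and none in spleen (median -0.50). Ccl22, a chemokine that mature dendritic cells make, had 87.1, 33.7 and 84.6 CPM in nodes and 8.61, 11.9 and 14.6 CPM in spleens (-2.54 ± 0.43, adjusted p = 0.00616), with node replicate 2 lowest of the nodes. Cd207, the langerin of Langerhans cells, stood at 0.951, 0.925 and 2.75 CPM in nodes and 0.987, 2.57 and 1.504 CPM in spleens. Without node replicate 2, 6 of 11 were higher in node (median -0.76).

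Plasmacytoid dendritic cell genes gave 4 of 12 higher in node and 1 in spleen (median -0.23). Siglech, their surface lectin, had 73.6, 102 and 71.9 CPM in nodes and 35.1, 31.98 and 37.1 CPM in spleens (-1.25 ± 0.15, adjusted p = 8.7e-05). Nodes labelled DKO had 15.9, 21.1 and 12.98 CPM, and in the libraries labelled DKO the spleen was higher by 1.24 (adjusted p of the difference = 0.00215). Ccr9 changed direction with the label in the same way, from -0.55 to 0.95 (adjusted p of the difference = 0.0053), although its call in these libraries was lost without node replicate 2 or spleen replicate 3 (adjusted p = 0.0664 and 0.0834). When the nodes labelled DKO were used instead, 4 of 12 were higher in spleen and 1 in node (median 0.10).

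Several stromal transcription factors had reads in one organ and few or none in the other. Of 9 spleen mesenchyme and sinus genes tested, 7 were higher in spleen and 1 in node, with a median of 8.98, or 7.21 with the 5 genes that had no count in the nodes set at their lower bounds. The nodes labelled DKO gave 7 of 8 in spleen and none in node. Tlx1, a homeobox factor without which no spleen forms, had 32.4, 45.3 and 38.03 CPM in the spleens and no count in any node, at least 389-fold. Tcf21, a mesenchymal factor, had 57.9, 79.4 and 68.8 CPM and no count, at least 693-fold. Nkx2-3, which patterns spleen and gut vessels, had 16.2, 20.5 and 16.4 CPM and no count, at least 178-fold. Nr5a1, the steroidogenic factor of splenic endothelium, had 26.02, 33.4 and 26.4 CPM and no count, at least 288-fold. These factors were thus detected in all 3 spleens and in no node. Other members of the list did have reads in the nodes. The whole list summed to 139, 181 and 111 CPM there, against 564, 667 and 575 CPM in the spleens, and 1 member tested was not called. Gata4 was the member called higher in node, with 3.42, 2.59 and 3.08 CPM in the nodes and 3 counts in the spleens, a ratio of 32.9 (10.9 to 162) in favour of the node.

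The nodes carried homeobox genes of the forelimb and trunk instead. Of 43 Hox and positional genes listed, 21 were expressed enough to be tested, and 13 of these were higher in node and none in spleen (median -1.79). Hoxd9 had 9.60, 9.81 and 13.3 CPM in the nodes and no count in any spleen, at least 117-fold. Hoxd4 (-3.93 ± 0.33) and Hoxd8 (-4.22 ± 0.36) were also higher in node, as was the T-box factor Tbx15 of trunk mesenchyme and fat (-5.49 ± 0.50). Meox2, a mesodermal homeobox factor, had 40.7, 39.98 and 24.2 CPM in nodes and 3 counts in the spleens, a ratio of 386 (132 to 1874). Hoxa2 (0.82 ± 0.38) and Hoxa3 (-0.55 ± 0.23), from the anterior end of a Hox cluster, did not pass. Surrounding fat carries positional factors too, and its markers were far higher in the same nodes, from 5995 to 15571 summed CPM against 724 to 745 CPM in the spleens. Most of each sum was the desaturase gene Scd1. The part of fat in the values of the Hox and positional genes was not tested. In the nodes labelled DKO, Hoxd9 differed by -9.23 and Meox2 by -7.98.

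High endothelial venules were a node feature in part of the list only. Of 12 genes tested, 5 were higher in node and 2 in spleen (median -0.47), or 1 in spleen when any library but node replicate 1 was left out. The nodes labelled DKO gave 6 of 12 higher in node and none in spleen (median -0.67). Glycam1, a sulphated mucin of these venules, had 181, 101 and 124 CPM in the nodes and 5 counts in all 3 spleens (-9.68 ± 0.38, adjusted p = 2.41e-07). Chst4, a sulphotransferase of these venules, had 15.9, 10.4 and 12.8 CPM against 0.269, 0.0987 and 0.619 CPM (-5.22 ± 0.39, adjusted p = 3.83e-06), and the fucosyltransferase Fut7 differed by -2.26 ± 0.26. Enpp2, the autotaxin of venule endothelium and stroma, had 524, 529 and 528 CPM against 105, 93.1 and 117 CPM (-2.33 ± 0.11, adjusted p = 2.3e-07). Madcam1, the integrin ligand that also lines the marginal sinus of the spleen, was higher in spleen at 8.52, 16.1 and 16.9 CPM against 2.57, 1.57 and 1.54 CPM (2.85 ± 0.32, adjusted p = 8.16e-05), a call lost against the nodes labelled DKO (0.98, adjusted p = 0.32). For Glycam1, the difference among libraries labelled DKO was -8.53.

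Lymphatic vessel genes gave 5 of 11 higher in node and 2 in spleen (median -0.65). Lyve1, the hyaluronan receptor of lymphatic endothelium and some macrophages, had 242, 197 and 217 CPM in the nodes and 0.538, 0.888 and 1.86 CPM in the spleens (-7.61 ± 0.27, adjusted p = 1.1e-07). Prox1, the factor that sets lymphatic identity, was not called, at 15.03, 23.2 and 11.1 CPM against 9.42, 11.1 and 10.3 CPM (adjusted p = 0.0569), but passed without node replicate 3 (-0.89, adjusted p = 0.00592). Pdpn, a membrane protein of lymphatics and reticular fibroblasts, differed by -3.18 ± 0.30. Itga9, an integrin chain that other vessels also make, was higher in spleen (0.98 ± 0.14). The node count was 3 without spleen replicate 1 or 2, the spleen count was 1 without spleen replicate 2 or 3, and the median was -0.35 without node replicate 2. With the nodes labelled DKO, 6 of 11 were higher in node and 1 in spleen. Blood endothelium was divided, with 4 of 12 genes higher in spleen and 6 in node (median -0.36), or 4 and 3 against the nodes labelled DKO (median 0.11). The water channel Aqp1, also on red cells, differed by 1.31 ± 0.17, Eng by 0.81 ± 0.12, and Emcn, a sialomucin of capillaries and veins, by -3.10 ± 0.19.

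Reticular stroma and its chemokines were near balance. Of 16 fibroblastic reticular and follicular genes tested, 4 were higher in spleen and 6 in node (median -0.10). Cxcl13, which draws B cells into follicles, had 145, 138 and 140.1 CPM in nodes and 92.96, 95.1 and 99.9 CPM in spleens (-0.56 ± 0.09, adjusted p = 0.000891). Ccl19, a ligand of Ccr7, was not called at 152, 94.8 and 136 CPM against 104, 142 and 133 CPM, and neither was Ccl21a at 171, 252 and 365 CPM against 79.1, 162 and 75.3 CPM (adjusted p = 0.0755, or 0.0162 without spleen replicate 2). Ccl21a has near-identical copies in the mouse genome, so its counts are uncertain. Lum, a small proteoglycan of fibroblasts, differed by -3.91 ± 0.29, whereas Pdgfrb, the receptor of pericytes and reticular cells, was higher in spleen by 1.27 ± 0.10. The spleen count was 2 without node replicate 2 or 3 or spleen replicate 2 or 3, and against the nodes labelled DKO none of the 16 was higher in spleen and 8 were higher in node (median -0.84).

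Matrix genes gave 9 of 22 higher in spleen and 5 in node (median 0.53, or 0.31 and 0.33 without node replicate 1 or 3). Col14a1, a collagen that binds fibrils, had 155, 150.3 and 159 CPM in spleens against 8.94, 12.1 and 8.47 CPM in nodes (3.97 ± 0.14, adjusted p = 3.26e-08), and Tnxb, a tenascin, 174, 224 and 242 CPM against 19.3, 28.04 and 15.1 CPM (3.35 ± 0.23, adjusted p = 9.16e-06). Dcn, or decorin, was higher in node at 299, 463 and 388 CPM against 46.8, 46.3 and 62.97 CPM (-2.88 ± 0.19, adjusted p = 3.04e-06), as was Postn, or periostin (-2.27 ± 0.15). When the nodes labelled DKO were used instead, 2 of 22 were higher in spleen and 11 in node, with a median of -0.89. Col14a1 and Dcn kept their directions among libraries labelled DKO, at 2.81 and -4.03.

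Fat markers were far higher in these nodes. Of 20 adipocyte genes tested, 19 were higher in node and none in spleen (median -5.95). The list summed to 13413, 15571 and 5995 CPM in the nodes and to 730.1, 745 and 724 CPM in the spleens. Adipoq, the hormone adiponectin, had 91.3, 179 and 41.5 CPM in nodes and 0.449, 0.493 and 0.708 CPM in spleens (-7.53 ± 0.89, adjusted p = 0.00259), and Plin1, the coat of the fat droplet, 97.8, 131 and 38.2 CPM against 0, 0.296 and 0.177 CPM (-9.07 ± 0.92, adjusted p = 0.00119). Scd1, the desaturase of fatty acid synthesis, made up most of the list sum in each of the 6 libraries. It had 8758, 9741 and 4132 CPM against 479, 468 and 458 CPM (-4.01 ± 0.32, adjusted p = 4.08e-05). Lep, or leptin, had 10.4, 7.496 and 1.21 CPM in the nodes and no count in the spleens, at least 71.8-fold, but its adjusted p was 0.044 and reached 0.152 without node replicate 2. Node replicate 3 was the lowest node for each of these genes, and every node lay above every spleen.

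Genes of thermogenic fat were present as well. Of 10 tested, 9 were higher in node (median -6.61), and the list summed to 858, 479.6 and 266 CPM in nodes against 10.7 to 12.6 CPM in spleens. Ucp1, the uncoupling protein of brown fat, had 449, 126 and 118 CPM in the nodes and 0, 0 and 0.354 CPM in the spleens (-10.75 ± 1.28, adjusted p = 0.00299), and the adjusted p was 0.0667 without spleen replicate 3. Cidea, a droplet protein, had 195, 207 and 66.3 CPM in nodes and 3 counts in the spleens, a ratio of 1748 (598 to 8478). Elovl3, a fatty acid elongase, had 28.1, 13.05 and 9.69 CPM and no count in spleens, at least 187-fold. The nodes labelled DKO held less fat signal: their adipocyte list summed to 1552 to 3586 CPM and their brown fat list to 18.3 to 29.9 CPM, scaled over all 12 libraries. Against those nodes, 8 of 16 adipocyte genes tested were higher in node and 1 in spleen (median -1.42), and 12 of the 20 passed the test of a difference by label. Of brown fat genes, 4 could be tested against those nodes, with 1 higher in node and 1 in spleen (median 0.035). How much of any other value higher in these nodes came from fat was not tested.

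**Figure D3:**
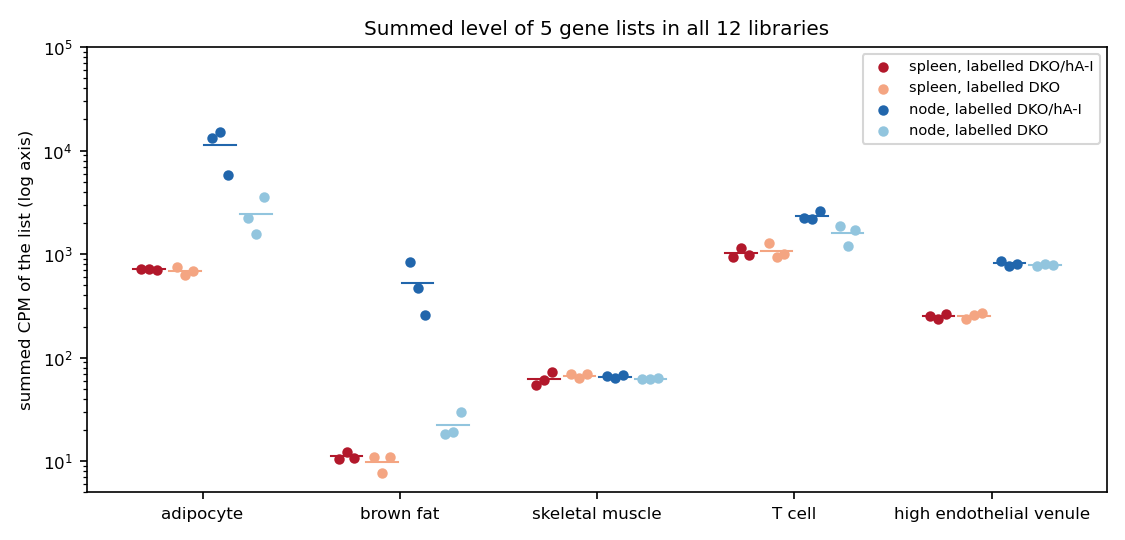
Summed CPM of 5 gene lists in each of the 12 libraries on a log axis, with a dash at each group mean. The 3 nodes labelled DKO/hA-I lie above every other library for the adipocyte and brown fat lists, whereas skeletal muscle stays between 54.9 and 74.5 CPM in the 6 libraries compared.

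Other neighbouring tissues left little trace. Of 17 skeletal muscle genes listed, 8 could be tested and 1, the calcium channel Ryr1, differed (0.97 ± 0.21, higher in spleen). Of 10 exocrine pancreas genes, Cela1 alone could be tested, at 29.3, 25.4 and 22.4 CPM in spleens against 1.71, 1.30 and 1.21 CPM in nodes (4.17 ± 0.21, adjusted p = 2.59e-07), while Pnlip had no count in any of the 6 libraries. Skin and mammary keratins Krt5 and Krt14 likewise had no count. Among 6 nerve genes tested, S100b, which adipocytes also make, was higher in node (-4.36 ± 0.95), a call lost without spleen replicate 1 (adjusted p = 0.0545). Against the nodes labelled DKO, none of the 8 muscle genes differed, and of 5 nerve genes tested 1 was higher in each organ.

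Interferon-stimulated genes varied widely among the nodes. Of 19 tested, 2 (Ifit2 and Usp18) were higher in node and none in spleen (median -1.37), and leaving out any library but node replicate 2 removed both calls. DESeq2 called 12 of the 19 higher in node, limma voom called none, and 12 had an unadjusted p under 0.05 in edgeR. Irf7, the factor that amplifies the response, had 553, 127 and 432 CPM in the nodes and 119, 125 and 146 CPM in the spleens (adjusted p = 0.109). Ifit3, an antiviral protein, had 296, 44.7 and 405 CPM against 59.5, 55.2 and 61.7 CPM, and Mx1, a dynamin-like antiviral GTPase, 198, 47.8 and 313 CPM against 41.4, 43.2 and 33.8 CPM. Node replicate 2 lay below every spleen for Isg15, Ifit1 and Ifit3, among others, while replicates 1 and 3 lay above all spleens. Without node replicate 2, 17 of 19 were higher in node and 1, Rsad2 (viperin), in spleen, with a median of -1.76. Rsad2 had 179.9, 145 and 130.3 CPM in spleens and 96.1, 19.9 and 109 CPM in nodes. Ifit3, Mx1 and Rsad2 were picked after their values were seen. In the libraries labelled DKO, 13 of 19 were higher in node and none in spleen (median -1.29). The spleens labelled DKO/hA-I against the nodes labelled DKO gave 14 of 19 higher in node, and the fit of all 12 libraries gave 13.

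**Figure D4:**
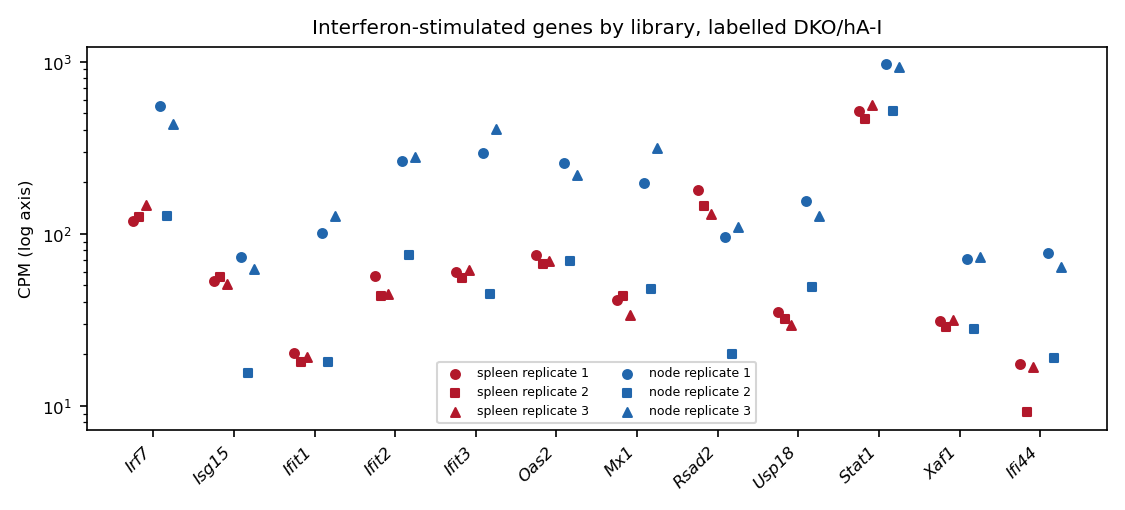
CPM of 12 interferon-stimulated genes in each of the 6 libraries labelled DKO/hA-I, on a log axis, with one symbol per replicate. Node replicate 2 (blue squares) lies near the spleens for most genes and below all of them for Isg15, Ifit1, Ifit3, Xaf1 and Rsad2, and node replicates 1 and 3 lie above the spleens for all but Rsad2.

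Lipid handling, the subject of the genotype, differed between organs gene by gene. Of 22 cholesterol efflux and lipid uptake genes tested, 3 were higher in spleen and 8 in node (median 0.01). Abca1, which loads cholesterol onto apoA-I, had 692, 529 and 587 CPM in nodes and 271, 268 and 230.0 CPM in spleens (-1.23 ± 0.13, adjusted p = 3.64e-05). Its partner Abcg1 was not called, at 326, 192 and 228 CPM against 149, 194 and 172 CPM (adjusted p = 0.058), but passed without node replicate 2 (-0.69, adjusted p = 0.0105). Vldlr, a receptor for triglyceride-rich particles, differed by -2.64 ± 0.29. The lysosomal lipase Lipa was higher in spleen (0.62 ± 0.10), and its value among libraries labelled DKO was -1.25 (adjusted p of the difference = 0.0283). Against the nodes labelled DKO, 2 of the 22 were higher in spleen and 10 in node (median -0.84). Of 21 cholesterol synthesis genes tested, 3 were higher in spleen and 2 in node (median 0.21). The synthesis count in spleen was 7 without spleen replicate 2 and 1 without any other library but node replicate 2. The nodes labelled DKO gave 4 of 21 higher in spleen and none in node (median 0.39).

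Signals that place lymphocytes leaned to the node. Of 17 lymphoid chemokine and lymphotoxin genes tested, 8 were higher in node and 1 in spleen (median -0.44). Gpr183, the oxysterol receptor that positions activated B cells, had 85.8, 96.2 and 84.2 CPM against 49.4, 63.8 and 55.6 CPM (-0.66 ± 0.12, adjusted p = 0.00152), and Ch25h, an enzyme that makes its ligand, 6.47, 11.1 and 7.70 CPM against 2.60, 2.96 and 4.16 CPM (-1.38 ± 0.27, adjusted p = 0.00287). Without spleen replicate 1 or 3 the node count was 5, and against the nodes labelled DKO 6 were higher in node and none in spleen.

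The organ comparison was repeated in the libraries labelled DKO, which share no sample with those above. There, 1165 of 14107 genes tested (8.26%) were higher in spleen and 1039 (7.37%) in node. Of the 2477 genes higher in spleen in the libraries labelled DKO/hA-I, 966 (39%) were called in the same direction in the libraries labelled DKO and 30 in the opposite direction. Of the 2063 higher in node, 595 (28.8%) were called in the same direction and 14 in the opposite one. All 32 erythroid genes, 13 of 17 platelet genes, 7 of 8 spleen mesenchyme genes and 10 of 20 Hox and positional genes tested were called there, each toward the organ named above. Other lists recurred far less. Of T cell genes 3 of 22 were called there and of naive T cell genes 3 of 14, all higher in node (medians -0.47 and -0.28). Of granulocyte genes 1 of 18 was called, higher in spleen, and of cell cycle genes 0 of 25 (medians 0.88 and 1.05). For plasma cell, complement, matrix and germinal centre genes the list medians had the opposite sign there, at -0.75, -0.87, -0.78 and -0.74. None of the 16 plasma cell genes was called there in either direction. The monocyte and cholesterol efflux medians also changed sign, to -0.55 and -0.87. So did the B cell, NK cell, plasmacytoid dendritic cell and blood endothelium medians, to 0.20, 0.11, 0.37 and 0.01. The skeletal muscle, nerve and skin medians changed too, to 0.25, 0.24 and 0.23. Set against the nodes labelled DKO, the spleens labelled DKO/hA-I no longer passed the test for Cd209b, Cd209d, Cd300e, S100a8, Elane, Mpo, Erg, Faim3, Fcer2a, Igj, Txndc5, Cd3e, Themis, Ccr7, Lef1, Tcf7, Eomes, Pdgfrb, Itga9, Ryr1, Gpr183, Mki67, Ccnb2, Birc5 and Plk1, each in the direction given above.

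**Figure D5:**
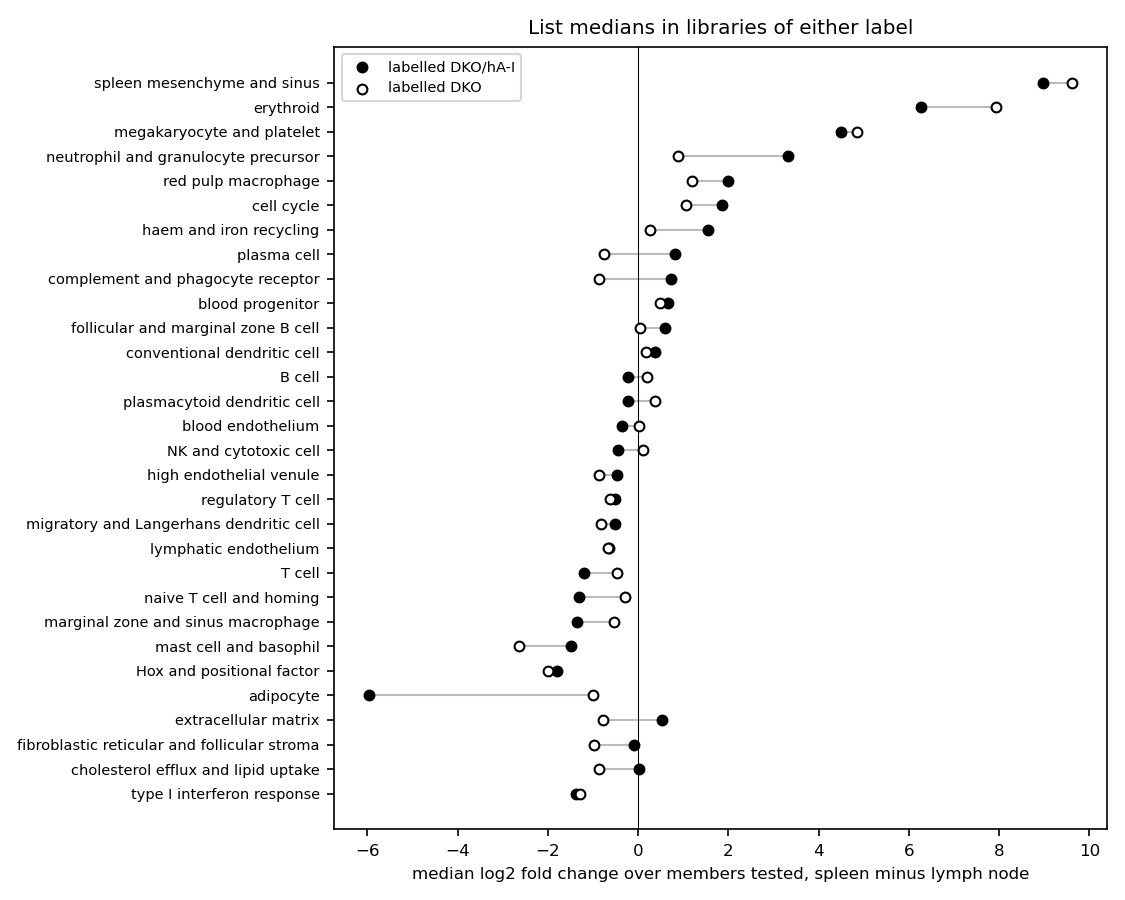
Median log2 fold change, spleen minus lymph node, over the members tested of 30 gene lists in libraries labelled DKO/hA-I (filled) and DKO (open), joined by a line. Spleen mesenchyme, platelet, lymphatic and Hox lists lie close together, while the adipocyte list moves from -5.95 to -1.01. The plasma cell and complement lists are among those that cross 0.

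A test of the difference by label, over all 12 libraries, passed for 487 of 14608 genes (3.33%). The spleen minus node difference was more spleen-sided in libraries labelled DKO/hA-I for 298 of them (2.04%) and more node-sided for 189 (1.29%). These counts rest on single libraries: they ranged from 83 (without spleen replicate 2 labelled DKO) to 856 (without node replicate 2 labelled DKO) in the first direction and from 94 to 304 in the second when 1 library was left out. Complement and phagocyte receptor genes gave 9 of 17 in the first direction and adipocyte genes 12 of 20 in the second. Erythroid, T cell, B cell, high endothelial venule, lymphatic, blood endothelium, mast cell and Hox genes gave none, as did cell cycle, interferon and other lists. For lists of this size, none is near the 3.33% of all genes and is no result about them. The largest difference was that of Rpl31-ps12, 17.84 (adjusted p = 1.73e-10). Frzb, a Wnt antagonist, had 0.65, 1.08 and 0.645 CPM in nodes labelled DKO/hA-I and 6.30, 12.3 and 14.3 CPM in nodes labelled DKO (all scaled over the 12 libraries, difference 3.51, adjusted p = 0.00271). Slco2a1, a prostaglandin transporter, had 18.2, 20.4 and 16.8 CPM in these nodes and 46.3, 43.4 and 54.9 CPM in nodes labelled DKO (difference 1.45, adjusted p = 0.00271). Kcnk3, a potassium channel, had 33.8, 34.5 and 15.5 CPM and 0.54, 1.35 and 1.32 CPM (difference -4.89, adjusted p = 0.00215). For Frzb, Slco2a1 and Kcnk3 the spleens of the 2 labels overlapped, and the nodes of the labels did not overlap.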

How the data were processed

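Whole spleen and axillary lymph node RNA was sequenced as polyadenylated RNA on an Illumina Genome Analyzer IIx, per the labels' protocols. The authors deposited raw counts per gene symbol, 23284 symbols, and the submitters' processing notes name Trimmomatic, TopHat, Bowtie, Cuffdiff and GRCm38/mm10 without versions. Symbols were matched to GENCODE and RefSeq names (89.8% by symbol). Whether counting used strand or how it treated near-identical copies was not given in the sources used here.

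Genes were filtered with edgeR's filterByExpr (minimum count 10, minimum total 15), scaled by TMM and tested by the quasi-likelihood test (edgeR 4.0.16, R 4.3.3) on the 3 spleens and 3 nodes labelled DKO/hA-I, with Benjamini-Hochberg adjustment over all genes tested. CPM use the TMM library sizes. Differences by label came from 1 model over all 12 libraries. Alternatives were DESeq2 1.42.0, limma 3.58.1 voom, 4 other scalings, no filter, a replicate block, the libraries labelled DKO and leaving out each library. On simulated counts for 14267 genes, 55% of 100 genes changed 2-fold and 100% of 100 changed 4-fold were recovered, and 4.3% of calls were unchanged genes. The simulation set the same dispersion for every gene and changed far fewer genes than were called here. Its rates therefore need not hold for this comparison. Intervals are exact at 95% and cover counting error only; the floor is 3 counts over the group.

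Named genes were Rpl31-ps12, Apoa1 and Apoe; the first 4 of each list, up to 4 called members of lowest adjusted p and up to 3 called against the list's direction; the 12 called genes of largest change toward each organ with groups that do not overlap and at least 10 CPM, passing over antigen receptor segments and unnamed gene models; and the 5 of lowest adjusted p per direction of the difference by label. Some genes that this rule names are not reported here. The members and lists were chosen with earlier results of these data known.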

Additional observations from a re-analysis of the deposited data

Results flagged for a closer look

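The genes below had an organ difference that differed between the labels by a test over all 12 libraries (edgeR interaction, adjusted p under 0.05). Values are the log2 spleen minus node difference in libraries labelled DKO/hA-I minus that in libraries labelled DKO. Rpl31-ps12, the pseudogene that went against the labels, stood at 17.84.

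The difference was more node-sided in libraries labelled DKO/hA-I for Kcnk3 (-4.89), the macrophage receptors Marco (-3.95), Cd209b (-3.81) and Cd209d (-1.70), the fat genes Scd1 (-3.08), Fasn (-4.24) and Pck1 (-5.18), the plasmacytoid dendritic cell genes Siglech (-2.47) and Ccr9 (-1.47), and the granzyme Gzma (-2.09). For Scd1, scaled over the 12 libraries, the nodes labelled DKO had 838, 764 and 866 CPM, against 8558, 9515 and 4037 CPM in the nodes labelled DKO/hA-I.

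It was more spleen-sided for the Wnt antagonist Frzb (3.51), the transporter Slco2a1 (1.45), the platelet chemokine Pf4 (2.41), the monocyte receptors Fcgr4 (2.25) and Ccr2 (1.57), the IgG receptor Fcgr3 (2.23), the complement gene C1qa (1.83), the uptake receptor Lrp1 (2.13) and the lipase Lipa (1.90). The B cell genes Myof (2.31) and Cd9 (1.95), the chemokine Cxcl13 (1.56) and the stromal genes Pdgfrb (1.26) and Dcn (1.17) had the same direction. On the same scale, the nodes labelled DKO had 584, 399 and 903 CPM of C1qa, above the 188, 134 and 147 CPM of the nodes labelled DKO/hA-I.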

How the results depend on the processing

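With DESeq2, limma voom, other scalings, no filter on low counts, all 12 libraries in 1 fit or the spleens labelled DKO in place of these, both organ counts stayed within 1.5 times 2477 and 2063. A test against a 2-fold change gave 810 and 477 genes, and the same spleens against the nodes labelled DKO gave 1191 and 1210. Leaving out 1 library gave 2011 to 2325 genes higher in spleen and 1447 to 2018 higher in node. The largest scaling shift of the median gene was 0.02 (log2). The counts of genes whose organ difference depended on the label were less stable: 298 and 189 became 137 and 105 with limma voom, the second became 319 with the spleen labels exchanged, and leaving out 1 library gave 83 to 856 and 94 to 304. The cause was not tested.

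Replicate numbers did not pair the samples: deviations of same-numbered spleens and nodes correlated at -0.03, 0.03 and 0.01. With the replicate block, 2424 and 2002 genes were called, and 164 and 135 depended on the label.

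With the nodes labelled DKO, these reported genes turned direction: Rpl31-ps12 (-0.14), Marco (3.10), Kcnk3 (1.76), Siglech (1.04), Ccr9 (0.80), Cd9 (-1.52), Myof (-1.31), Fcgr4 (-0.85), Fcgr3 (-1.12), C1qa (-1.25), Lrp1 (-0.29) and Lipa (-1.22). So did the medians of the plasma cell (-0.94), germinal centre (-0.54), B cell (0.25), NK cell (0.051), monocyte (-0.67), plasmacytoid dendritic cell (0.10), blood endothelium (0.11), matrix (-0.89), brown fat (0.035), skeletal muscle (0.32), nerve (0.12), cholesterol efflux (-0.84) and complement (-0.96) lists. The brown fat median against the nodes labelled DKO covered only 4 genes, whereas 10 were tested in the libraries compared here. The NK cell median was -0.556 to 0.0423 when 1 library was left out. The skin list, with 1 gene tested, had a median of 1.84 over 9 genes without the filter. Genes below the filter on low counts were not tested.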

Other observations

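Genes outside the lists, chosen after their values were seen, described more of each organ. In spleen, secreted and matrix proteins stood out. Coch, or cochlin, an extracellular protein that follicular dendritic cells also make, had 1039, 1071 and 1041 CPM in spleens and 18.3, 8.42 and 8.80 CPM in nodes (6.47 ± 0.31, adjusted p = 1.95e-06, edgeR). Smoc2, a calcium-binding matrix protein, had 276, 255 and 256 CPM against 4.09, 7.87 and 2.75 CPM (5.72 ± 0.30, adjusted p = 5.22e-06), and Npnt, or nephronectin, an integrin ligand of basement membranes, 114, 130.1 and 129 CPM against 1.52, 1.57 and 1.65 CPM (6.29 ± 0.14, adjusted p = 2.08e-09). Itgad, the integrin chain CD11d of red pulp macrophages, had 262, 269 and 251 CPM against 3.33, 2.13 and 2.86 CPM (6.55 ± 0.16, adjusted p = 2.08e-09). Star, the cholesterol carrier of steroid-making cells, had 167, 209 and 162 CPM against 8.08, 9.44 and 16.3 CPM (4.000 ± 0.25, adjusted p = 6.95e-06). For each of these genes the organ difference had the same direction in the libraries labelled DKO, from 4.66 for Star to 6.83 for Smoc2. No spleen overlapped any node.

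In node, Tnc, the matrix protein tenascin C, had 223, 164 and 128 CPM against 4.49, 3.36 and 3.98 CPM (-5.44 ± 0.24, adjusted p = 3.97e-07), and Vtn, or vitronectin, 28.8, 24.5 and 27.7 CPM against 0.0897, 0.296 and 0 CPM (-7.65 ± 0.36, adjusted p = 1.9e-07). Lyz1, the Paneth cell type lysozyme, had 513, 449 and 556 CPM against 70.4, 81.4 and 88.00 CPM (-2.66 ± 0.13, adjusted p = 2.12e-07). Its paralog Lyz2 is similar in sequence, so reads may be split between them. All 3 differences were called in the libraries labelled DKO too, at -5.496, -7.20 and -2.35. Fasn, the fatty acid synthase, behaved otherwise: it had 4931, 5344 and 1336 CPM in nodes against 138, 151 and 162 CPM in spleens (-4.68 ± 0.61, adjusted p = 0.00328), but -0.43 in the libraries labelled DKO (adjusted p = 0.249, and of the difference 0.00292). Its values followed the adipocyte list, lowest in node replicate 3.

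The beta globin copies were divided unevenly among the spleens. Hbb-b2 stood at 1845, 25.9 and 1708 CPM and Hbb-b1 at 2489, 6535 and 2339 CPM, so spleen replicate 2 was lowest for the first and highest for the second. The cause was not tested.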
